A study of Danio rerio with 6 samples.

Results

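The miRNAs miR-99, miR-100 and miR-125 were measured in zebrafish (Danio rerio) ovarian follicular cells, the somatic layers that enclose the oocyte. Every dre- row of the normalized count files named for miR-99, miR-100 or miR-125 was taken, whatever its arm or letter, which gave 13 of the 289 listed miRNAs. These were 5 rows from the 5′ arm (miR-99, miR-100-5p, miR-125a, miR-125b-5p and miR-125c-5p, called guides here) and 8 rows from the 3′ arm. A row found through a precursor of another species, oga-mir-100-p5, is not among them. The study compared follicular cells of stage IIIb, the mid- to late vitellogenic follicles that can be induced to mature, with those of stage IIIa, the smaller early vitellogenic follicles that cannot. There were 3 samples of each stage, from fish of a local supplier, and the sources used here name no genotype, strain, age or treatment. Each sample pooled the mechanically stripped cell layers of many follicles from several fish, so a sample is a pool and not an animal. The labels name follicular cells without separating granulosa from theca cells, and fewer cells of one kind cannot be told apart from less RNA per cell.

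A miRNA is cut from a hairpin precursor, and one of its strands, the guide, is kept by an Argonaute protein and pairs with messenger RNAs mainly through its seed, bases 2 to 8. miR-100 is among the oldest animal miRNAs. It and its close relative miR-99 are known in mammalian cells as repressors of mTOR and insulin-like growth factor receptor transcripts. miR-125 is the vertebrate form of lin-4 of Caenorhabditis elegans, a timer of larval development, and miR-125b is known in zebrafish as a repressor of p53. In many animals these genes lie together with a let-7 gene, another miRNA of developmental timing.

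The guides are shown first because their seeds divide the family. Capitals mark the seed, written with T as in the deposited files.
dre-miR-100-5p: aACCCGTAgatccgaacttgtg
dre-miR-99: aACCCGTAgatccgatcttgtg
dre-miR-125a: tCCCTGAGacccttaacctgtg
dre-miR-125b-5p: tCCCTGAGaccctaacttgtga
dre-miR-125c-5p: tCCCTGAGaccctaactcgtga
The miR-99 and miR-100 guides shared the seed ACCCGTA, the 3 miR-125 guides shared CCCTGAG, and 0 other miRNAs of the files had either seed. With positions counted from 1 at the 5′ end, miR-100-5p and miR-99 differed by A16T alone, and miR-125b-5p and miR-125c-5p by T18C alone. In both tokens the base of the first miRNA comes first. miR-125a shared the first 13 bases with miR-125b-5p and miR-125c-5p. The authors allowed a single mismatch in the alignment of reads, so reads of these near-identical guides could have been divided between them.

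In the RefSeq annotation of the GRCz12tu assembly, used here for gene order only, all 10 genes of the family lay in 6 clusters with a let-7 gene. Clusters were read from the order of gene starts on a chromosome, with no limit of distance. In that order, a long non-coding RNA gene came between let-7a-2 and mir125b-1 and between let-7d-1 and mir125a-1. Gene ends were not used, so whether it overlaps these genes was not examined. One cluster held mir100-2, let-7a-4 and mir125b-2, and another mir100-1, let-7a-2 and mir125b-1. The genes mir-99-2, let-7c-2 and mir125b-3 formed the third, and mir-99-1, let-7c-1 and mir125c the fourth. The other two paired let-7d-1 with mir125a-1 and let-7d-2 with mir125a-2. These clusters held 6 of the 18 annotated let-7 genes. The guide of a multi-copy gene does not show which copy it came from, whereas the 3′ arms differ between copies and are shown for that reason, again with the seed in capitals.
dre-miR-100-2-3p: cAAGCTCGtgtctataggtatg
dre-miR-100-3p: cAAGCTTGtatctataggtatc
dre-mir-99-2-p3: cAAGCTCGattctgtgggtct
dre-mir-99-1-p3: cAAGCTCGattctatgggtctc
dre-miR-125b-1-3p: aCGGGTTAggttcttgggagct
dre-miR-125b-2-3p: cGGGTTGGgttctcgggagct
dre-miR-125b-3-3p: aCAGGTTAagctcttgggacct
Relative to miR-100-3p, miR-100-2-3p carried T7C, A10G and C22G, and the first of these lies in the seed. mir-99-1-p3 and mir-99-2-p3 differed by A14G over the 21 bases they share. The row miR-100-3p names no gene copy and is placed with mir100-1 below because the annotation holds only 2 miR-100 genes.

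For 3 members the precursor is given by the authors, in GRCz11 coordinates, with both arms in capitals. They are the 2 copies of miR-99, whose 3p rows differed most in level, and mir-125a-1. The 3p row of mir-125a-1 was the only member with separate stages as deposited, though not at equal totals. As deposited, 11.8% of all 289 miRNAs separated in that direction, with stage IIIb higher.
mir-99-1, chr15:29795583-29795666, plus strand: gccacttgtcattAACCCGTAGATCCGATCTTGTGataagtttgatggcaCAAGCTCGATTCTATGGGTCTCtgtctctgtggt
mir-99-2, chr10:38074312-38074391, minus strand: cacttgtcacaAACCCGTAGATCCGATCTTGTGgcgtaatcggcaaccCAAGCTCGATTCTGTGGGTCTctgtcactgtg
mir-125a-1, chr16:24898171-24898253, plus strand: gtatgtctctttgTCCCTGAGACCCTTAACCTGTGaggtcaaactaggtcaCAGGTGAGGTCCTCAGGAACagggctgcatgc
The same miR-99 guide lies in both miR-99 precursors, and 15 bases separate the arms in each. Predicted minimum free energies were -31.1 kcal/mol for mir-99-1, -25.2 kcal/mol for mir-99-2 and -39.4 kcal/mol for mir-125a-1. In all 3 predicted folds, 16 of the 22 guide bases paired with the 3p sequence. Which other genes these positions fall in was not examined, since no annotation of GRCz11 was used.

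The values are read counts divided by the authors by a library size parameter. Their totals ranged from 1819026 to 3166619 in stage IIIb and from 1779302 to 2196896 in stage IIIa, and stage IIIb replicate 3 had the largest total. One read was worth between 0.350 and 1.58 normalized counts, and 2575578 to 9045233 reads in stage IIIb and 1129114 to 4005857 in stage IIIa lay behind the values. The shallowest library was stage IIIa replicate 1. Every member was above 0 in every sample, and the lowest was mir-99-1-p3 in that library with 17 reads (exact 95% Poisson interval 9.90 to 27.2, counting error only). As checks of the tissue, both arms of the gonadal miR-202 together took 16.3% to 23.4% of counts in stage IIIb and 16.04% to 18.2% in stage IIIa. The 6 listed red blood cell miRNAs took 0.0904% to 0.283% in stage IIIb and 1.08% to 1.47% in stage IIIa. Liver miR-122 reached at most 0.0293%, and of 4 skeletal muscle miRNAs only miR-133a-3p was listed, at no more than 0.00551%. The part of red blood cell RNA in the stage values below was not tested.

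By counts, the family was dominated by a pair of guides, 1 of each seed. Levels, ratios and shares of different sequences are compared here as counts. How evenly the libraries captured each sequence was not tested. miR-100-5p had 22529, 22839 and 28978 normalized counts in stage IIIb replicates 1, 2 and 3, and 19144, 29463 and 26489 in stage IIIa replicates 1, 2 and 3. The stages overlapped fully, with the lowest and the highest values both in stage IIIa. By mean count it ranked 14 of 289, and between 13 and 18 in single samples. miR-125a had 10935, 17635 and 26192 in stage IIIb, and 15611, 10124 and 12836 in stage IIIa. Its rank was 21 by mean count and varied from 17 to 28, with the highest value in stage IIIb replicate 3 and the lowest in stage IIIa replicate 2.

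The remaining guides had lower levels. miR-125b-5p had 2985, 4283 and 5682 normalized counts in stage IIIb, and 3489, 4107 and 4541 in stage IIIa. miR-125c-5p had 2648, 2595 and 7146 in stage IIIb, and 2963, 2352 and 2741 in stage IIIa, so that stage IIIb replicate 3 alone stood out. miR-99 had 2118, 2841 and 3660 in stage IIIb, and 2941, 2912 and 2555 in stage IIIa. In none of these did the stages separate.

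In the order of mean levels, miR-100-5p exceeded miR-125a in 6 of 6 samples, by 0.74 ± 0.55 on the log2 scale (SD, n = 6). miR-125a exceeded miR-125b-5p in 6 of 6, by 1.85 ± 0.37. miR-125b-5p, miR-125c-5p and miR-99 could not be ordered beyond their spread, with mean log2 ratios of 0.39 ± 0.44 between the first pair and 0.16 ± 0.45 between the second (SD, n = 6). The lowest guide, miR-99, was 2.23 ± 0.34 log2 units above the highest 3p row (SD, n = 6). Of the 3p rows, miR-100-2-3p and mir-99-2-p3 stood clear of the others, and miR-125b-3-3p, miR-125b-1-3p, miR-100-3p, miR-125b-2-3p and mir-125a-1-p3 followed with no neighbour differing beyond the spread. mir-99-1-p3 came last, 1.25 ± 0.53 below mir-125a-1-p3 (SD, n = 6). The order comes from the same values and was not tested.

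**Figure D1:**
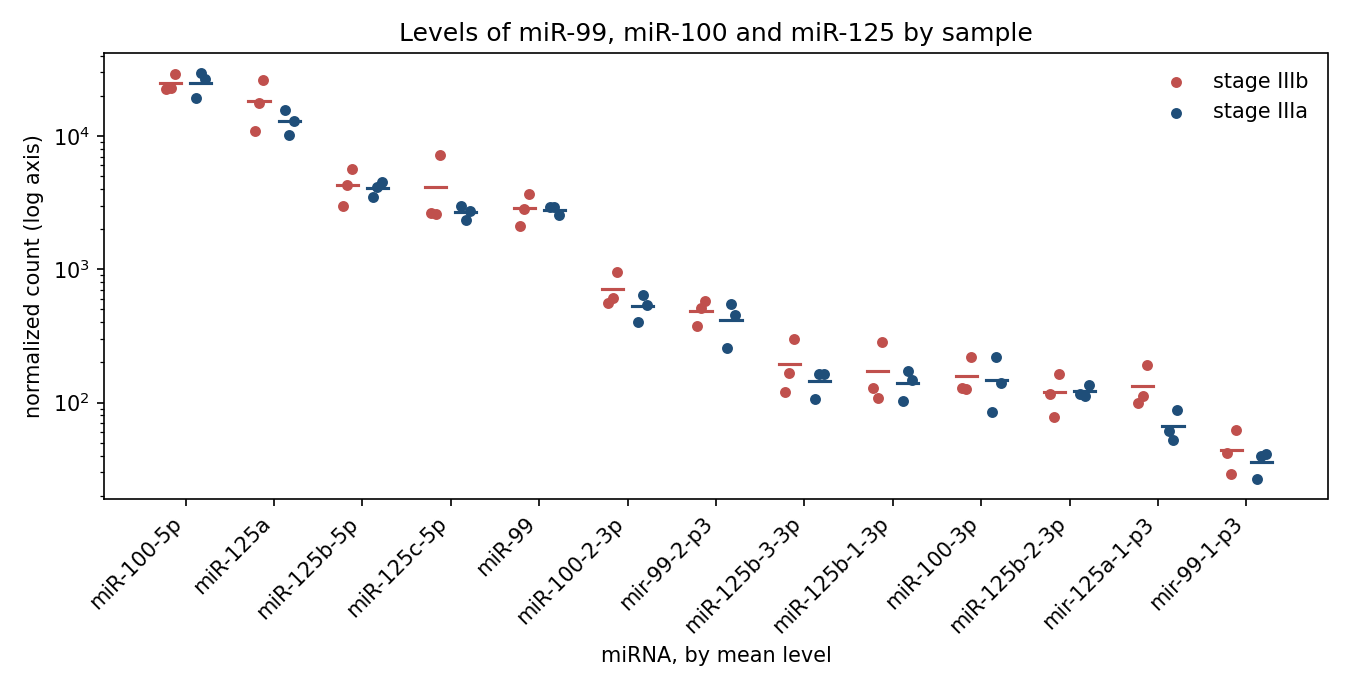
Normalized counts (log axis) of the 13 miRNAs in each sample, ordered by mean level, with stage IIIb at the left and stage IIIa at the right of each position and a line at each mean (n = 3). The 5 guides lie at 2118 or above and the 3p rows at 959 or below, and the stages overlap for every miRNA but mir-125a-1-p3. Of all 289 miRNAs, 11.8% separate in the direction of mir-125a-1-p3.

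The 3p rows, which are the strand that is mostly discarded, were all low. mir-99-2-p3 had 376, 512 and 577 normalized counts in stage IIIb, and 258, 545 and 452 in stage IIIa. miR-125b-3-3p had 120.1, 165 and 301 in stage IIIb, and 106, 164 and 163 in stage IIIa, with stage IIIb replicate 3 well above the rest. miR-125b-1-3p had 129, 109 and 283 in stage IIIb, and 102, 173 and 147 in stage IIIa. Here too stage IIIb replicate 3 was the highest and the other 5 samples were mixed. miR-100-3p had 129, 125.3 and 220.2 in stage IIIb, and 85.1, 218 and 139 in stage IIIa. miR-125b-2-3p had 116, 78.0 and 163 in stage IIIb, and 117, 112 and 135 in stage IIIa, so both its lowest and its highest values were in stage IIIb. mir-99-1-p3 had 41.7, 29.0 and 62.0 in stage IIIb, and 26.8, 40.03 and 41.4 in stage IIIa. None of these rows separated the stages.

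The 3p rows of different gene copies differed widely in level. Since a 3p row is mostly the discarded strand, the output of each copy was not tested. Of the counts on both miR-100 3p rows, miR-100-2-3p held 81.2%, 83.0% and 81.3% in stage IIIb replicates 1, 2 and 3, and 82.6%, 74.5% and 79.4% in stage IIIa. It was 4.18 ± 0.713 times as high as miR-100-3p (SD, n = 6) and higher in 6 of 6 samples. Of the counts on both miR-99 3p rows, mir-99-2-p3 held 90.0%, 94.6% and 90.3% in stage IIIb, and 90.6%, 93.2% and 91.6% in stage IIIa. Its ratio to mir-99-1-p3 lay between 9.03 and 17.6, with 17 to 177 reads behind mir-99-1-p3. These rows differ by A14G alone over their shared bases. With a single mismatch allowed, reads of either row could have been assigned to the other. Both rows came out as whole reads in 6 of 6 samples, by the recovery described below. The assignment of whole reads was not tested. The guide of both miR-99 copies is the same sequence, so the imbalance between mir-99-2-p3 and mir-99-1-p3 is seen in the 3p rows alone.

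The 3p rows of the miR-125b copies were far more even. miR-125b-1-3p held 35.3%, 30.9% and 37.9% of the miR-125b 3p counts in stage IIIb, and 31.6%, 38.5% and 33.0% in stage IIIa. miR-125b-2-3p held 31.8%, 22.2% and 21.8% in stage IIIb, and 35.9%, 24.9% and 30.4% in stage IIIa. miR-125b-3-3p held 32.9%, 46.9% and 40.3% in stage IIIb, and 32.5%, 36.6% and 36.6% in stage IIIa. The order of the 3 rows thus changed from sample to sample, unlike that of the miR-99 and miR-100 3p rows.

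The ratio between the counts of the 3p rows of a cluster differed from cluster to cluster. In the mir100-2 cluster, miR-100-2-3p was 4.78, 7.83 and 5.88 times as high as miR-125b-2-3p in stage IIIb, and 3.46, 5.68 and 3.97 times in stage IIIa. In the mir100-1 cluster, miR-100-3p was 1, 1.15 and 0.778 times as high as miR-125b-1-3p in stage IIIb, and 0.831, 1.26 and 0.949 times in stage IIIa. The 2 ranges do not meet. mir-99-2-p3 was between 1.92 and 3.32 times as high as its cluster neighbour miR-125b-3-3p. These ratios are descriptions of counts and were not tested, nor was their relation to RNA amounts.

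**Figure D2:**
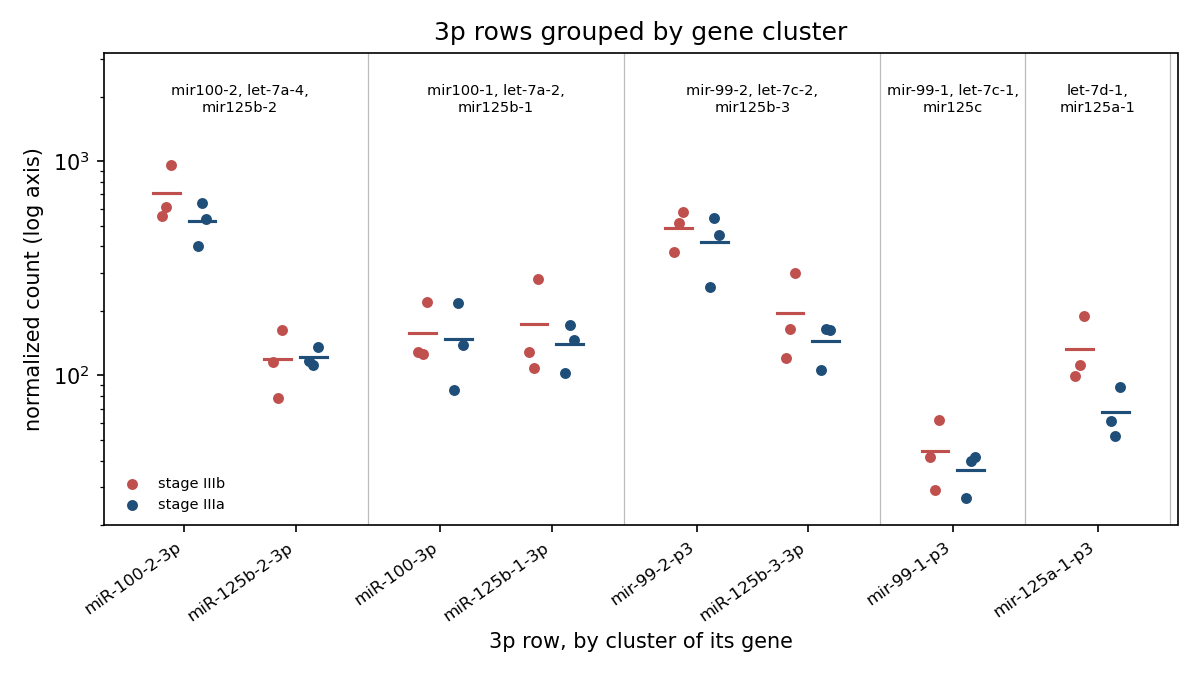
Normalized counts (log axis) of the 8 rows from the 3′ arm, grouped by the gene cluster named above them, with stage IIIb at the left and stage IIIa at the right of each position and a line at each mean (n = 3). miR-100-2-3p lies well above miR-125b-2-3p, whereas miR-100-3p and miR-125b-1-3p of another cluster lie level.

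The 3p rows took a much larger share of the counts of miR-99 than of miR-100. The guides of the pair differ by a single base, so their reads could have been divided between them. The effect of this on the shares was not tested. The 3p rows of miR-99 took 16.5%, 16% and 14.9% of the counts on both its arms in stage IIIb, and 8.84%, 16.7% and 16.2% in stage IIIa. Those of miR-100 took 2.94%, 3.12% and 3.91% in stage IIIb, and 2.49%, 2.81% and 2.49% in stage IIIa. Those of miR-125 took 2.72%, 1.85% and 2.35% in stage IIIb, and 1.72%, 2.93% and 2.58% in stage IIIa. The miR-99 share was the highest of the 3 in 6 of 6 samples. Stage IIIa replicate 1, the shallowest library, had the lowest miR-99 share, with 181 reads behind it. The miR-125 share is incomplete, since no 3p row of miR-125c or of the second miR-125a copy was among the listed rows.

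Between the stages, the 3p share of miR-100 was the only one that separated. It averaged 3.32% ± 0.515 in stage IIIb and 2.60% ± 0.187 in stage IIIa (SD, n = 3 each), with p = 0.10 in an exact permutation test (two-sided), which is the lowest value 3 against 3 samples can reach. Over the 23 single values tested in this way, the adjusted p was 0.77. The difference of 0.73 percentage points was 0.43 without stage IIIb replicate 3. The miR-99 share averaged 15.8% ± 0.830 in stage IIIb and 13.9% ± 4.40 in stage IIIa (SD, n = 3 each, exact permutation test, p = 0.90). Without stage IIIa replicate 1 this difference changed its direction, to -0.66 percentage points. The miR-125 share averaged 2.31% ± 0.436 in stage IIIb and 2.41% ± 0.623 in stage IIIa (SD, n = 3 each, exact permutation test, p = 0.80).

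**Figure D3:**
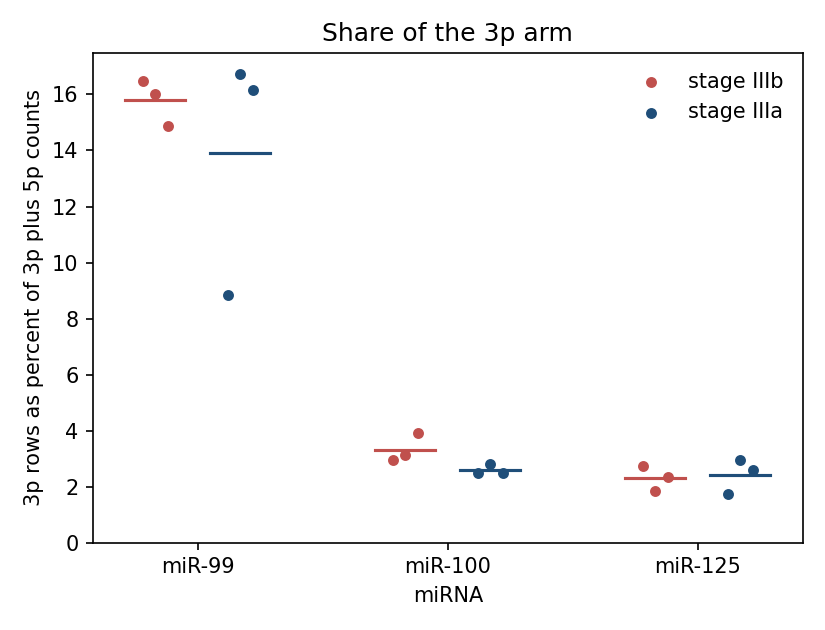
Counts of the 3p rows as a percentage of 3p plus 5p counts for miR-99, miR-100 and miR-125, by sample, with stage IIIb at the left and stage IIIa at the right and a line at each mean (n = 3). The miR-99 share lies between 8.84% and 16.7%, above every share of miR-100 and miR-125, and the miR-100 values of the stages do not overlap.

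The reads recovered by dividing each value by what 1 read was worth also differed between the arms. All 48 values of the 3p rows came out as whole reads at a tolerance of 0.01. Of the 30 values of the guides, 13 were whole. Values that became whole only after multiplication by 2 were found for miR-100-5p (5 of 6 samples), miR-99 (4 of 6) and miR-125a (2 of 6). Values that needed multiplication by 3 were found for miR-125b-5p (4 of 6) and miR-125c-5p (2 of 6). The annotation holds 2 gene copies each of miR-100, miR-99 and miR-125a, 3 of miR-125b and 1 of miR-125c. How the counting assigned reads to more than one precursor is not given in the sources used here. The effect of that assignment on the guide levels, their order and the 3p shares was not tested.

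As a pool, the 5 guides took 2.27%, 1.88% and 2.26% of all counts in stage IIIb, and 2.48%, 2.23% and 2.39% in stage IIIa. The mean was 2.14% ± 0.224 in stage IIIb and 2.37% ± 0.128 in stage IIIa (SD, n = 3 each, exact two-sided permutation test, p = 0.30, adjusted p = 0.77). In normalized counts the pool averaged 54354 ± 15642 in stage IIIb and 47423 ± 2838 in stage IIIa (SD, n = 3 each, exact permutation test, p = 0.70), the opposite direction. The miR-99 and miR-100 guides together took 1.12% ± 0.210 in stage IIIb and 1.38% ± 0.121 in stage IIIa (exact permutation test, p = 0.20). The miR-125 guides took 1.02% ± 0.184 in stage IIIb and 0.991% ± 0.243 in stage IIIa (exact permutation test, p = 1).

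Within the pool, the shares of every guide overlapped between the stages. miR-100-5p was 54.7%, 45.5% and 40.4% of the guides in stage IIIb, and 43.4%, 60.2% and 53.9% in stage IIIa. miR-125a was 26.5%, 35.1% and 36.6% in stage IIIb, and 35.4%, 20.7% and 26.1% in stage IIIa. The ratio of miR-125a to miR-100-5p accordingly ran from 0.344 in stage IIIa replicate 2 to 0.904 in stage IIIb replicate 3, with 0.815 in stage IIIa replicate 1. miR-125b-5p stayed between 7.24% and 9.24%, miR-99 between 5.11% and 6.66%, and miR-125c-5p between 4.80% and 9.97%. For these 5 shares p lay between 0.20 and 0.50 and adjusted p between 0.77 and 0.88 (exact permutation tests, two-sided).

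**Figure D4:**
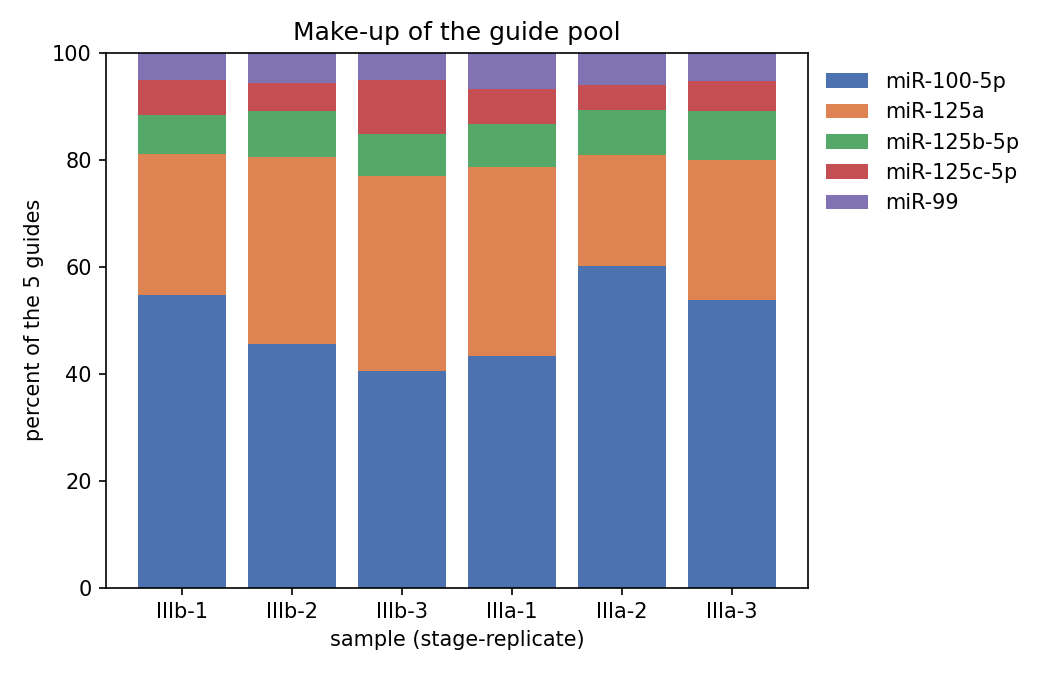
Share of each guide in the summed counts of the 5 guides, in percent, for the 3 samples of stage IIIb and then the 3 of stage IIIa. miR-100-5p ranges from 40.4% to 60.2% and miR-125a from 20.7% to 36.6%, with stage IIIa replicate 1 resembling stage IIIb replicates 2 and 3.

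None of the 13 miRNAs was called between the stages. With limma on log2(normalized count + 1), 0 of 13 had an adjusted p under 0.05, where 4.5% of all 289 were called, and 0 of 13 had an unadjusted p of 0.05 or less, where 14.9% of all did (9.69% higher and 5.19% lower in stage IIIb). A second limma fit, of the recovered reads with voom weights, called 0 of 13 in both ways too, where 4.15% and 13.8% of all were called. Changes are stage IIIb over stage IIIa on this log2 scale, which understates those of low rows. The fold change of miR-100-5p was -0.0010 (95% interval -0.67 to 0.67, limma adjusted p = 0.997), the largest p of all miRNAs. That of miR-99 was 0.0028 (-0.72 to 0.72) and that of miR-125b-5p 0.053 (-0.69 to 0.80). The intervals leave room for changes of this size in either direction, so equal levels are not shown.

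The other guides and 3p rows lay mostly above 0 without passing the test. miR-125a had a log2 fold change of 0.44 (-0.37 to 1.25, limma adjusted p = 0.594) and miR-125c-5p of 0.45 (-0.46 to 1.36, limma adjusted p = 0.621). Both moved with single libraries, miR-125a between 0.13 without stage IIIb replicate 3 and 0.76 without stage IIIb replicate 1 (0.28 without stage IIIa replicate 2), and miR-125c-5p between -0.028 without stage IIIb replicate 3 and 0.70 without stage IIIb replicate 2 (0.69 without stage IIIb replicate 1). miR-100-2-3p had 554, 611 and 959 normalized counts in stage IIIb, and 403, 635 and 538 in stage IIIa, a log2 fold change of 0.41 (-0.39 to 1.21), which was 0.17 without stage IIIb replicate 3 and 0.23 without stage IIIa replicate 1. In all, 11 of 13 fold changes were above 0, against 57.8% of all 289, with a median of 0.25 against 0.15 for all. With every sample scaled to the same total, 5 of 13 were above 0, against 40.1% of all, with medians of -0.058 and -0.16. With size factors from median ratios, 8 of 13 were above 0, with a median of 0.080 against -0.018 for all. With equal totals computed without the 10 highest miRNAs, 9 of 13 were, with a median of 0.155 against 0.058. Of these scalings, equal totals alone put the median of the family below 0, so its direction rested on the choice of scaling. For median ratios and for totals without the 10 highest, the share of all miRNAs above 0 is not given here. The counts of members above 0 in those scalings have no such background beside them.

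The largest change was that of mir-125a-1-p3, the 3p strand of 1 miR-125a copy. The ending p3 is the authors' tentative name for an unannotated arm of a known precursor. mir-125a-1-p3 had 99.6, 111 and 190 normalized counts in stage IIIb, and 61.5, 52.1 and 88.2 in stage IIIa. Few reads lay behind them, 141, 134 and 542 in stage IIIb and 39, 95 and 164 in stage IIIa. All stage IIIb samples were above all stage IIIa samples, which held for 1 of 13 members and for 11.8% of all miRNAs. The log2 fold change was 0.95 (95% interval -0.063 to 1.97, limma adjusted p = 0.346), and 0.67 to 1.16 with each sample left out in turn. After rescaling to equal totals the stages overlapped, with a log2 fold change of 0.65 (limma adjusted p = 0.307). In that scaling miR-99 and miR-125b-5p separated, both lower in stage IIIb, with log2 fold changes of -0.31 (limma adjusted p = 0.360) and -0.26 (limma adjusted p = 0.387). Separation in that direction was found for 18.3% of all miRNAs.

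**Figure D5:**
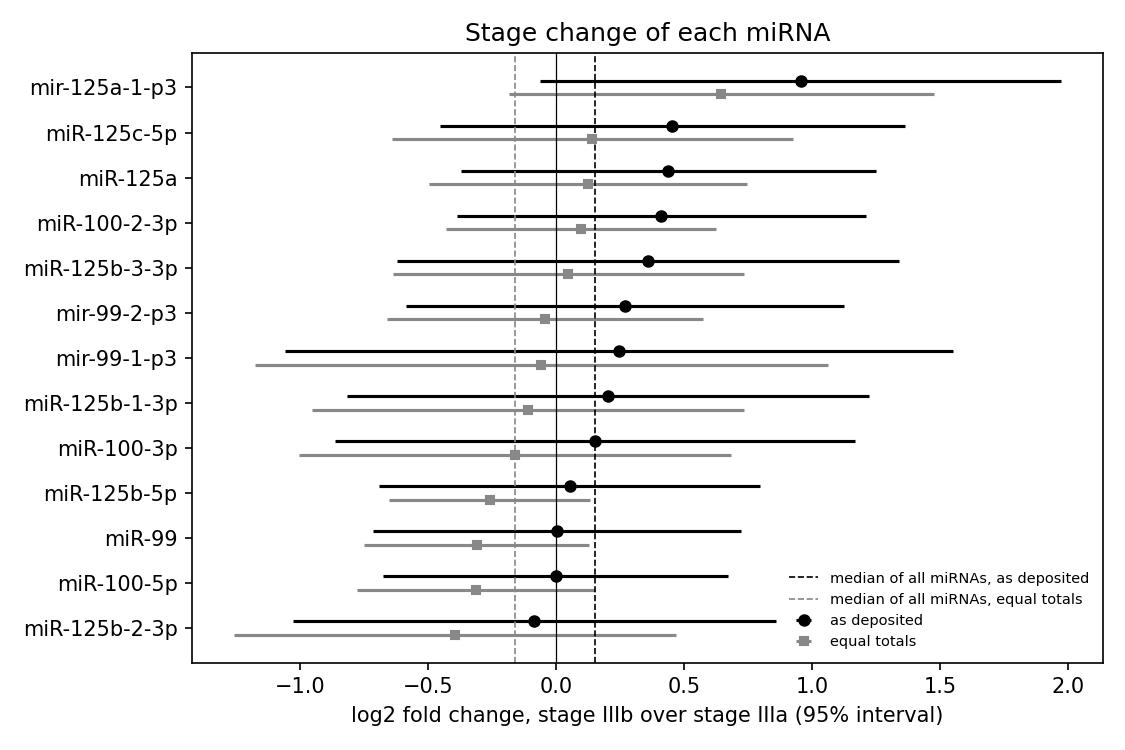
Log2 fold change of each miRNA, stage IIIb over stage IIIa, with its 95% interval from limma, as deposited (circles) and after rescaling to equal totals (squares). Every interval includes 0, and dashed lines mark the median of all 289 miRNAs at 0.15 and -0.16.

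Single libraries weighed on these values. Stage IIIb replicate 3 had the highest normalized count of 12 of 13 members, and also of 48.8% of all 289 miRNAs. As a share of counts it was the highest for 4 of 13, against 16.6% of all. Without it, the median log2 fold change of the 13 was -0.028, against -0.0090 for all 289. Stage IIIa replicate 1 was lowest for 7 of 13 members and for 40.1% of all. Leaving it out gave medians of 0.039 for the 13 and 0.023 for all 289.

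The 9 dre-let-7 guides, of which let-7a, let-7c-5p and let-7d-5p have genes in the clusters, together exceeded the guides of the family in every sample. They had 79094, 101718 and 127004 normalized counts in stage IIIb, and 68210, 87339 and 107028 in stage IIIa. The highest was let-7e (mean 36641), which has no gene in these clusters, and the lowest let-7c-5p (mean 1949). let-7a, let-7c-5p and let-7d-5p alone had 24216, 34179 and 35515 in stage IIIb, and 16498, 23392 and 23663 in stage IIIa, which was less than the guides of the family in every sample. The log2 ratio of the miR-99, miR-100 and miR-125 guides to all 9 was -0.93 ± 0.097 in stage IIIb and -0.86 ± 0.25 in stage IIIa (SD, n = 3 each, exact two-sided permutation test, p = 0.70). For the miR-99 and miR-100 guides alone it was -1.88 ± 0.17 in stage IIIb and -1.65 ± 0.23 in stage IIIa (exact permutation test, p = 0.20). For the miR-125 guides it was -2.004 ± 0.28 in stage IIIb and -2.15 ± 0.45 in stage IIIa (exact permutation test, p = 0.60).

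Of the 9 let-7 guides 0 had an adjusted p under 0.05 in limma, and 1 had an unadjusted p of 0.05 or less, where 4.5% and 14.9% of all did, so the count was not above that of all miRNAs. It was let-7d-5p, both genes of which lie in a cluster with a miR-125a gene. let-7d-5p had 3412, 3827 and 4966 normalized counts in stage IIIb, and 1880, 2614 and 2791 in stage IIIa, 0.75 higher on the log2 scale (95% interval 0.030 to 1.46, limma adjusted p = 0.314). Its stages were separate as deposited and after rescaling to equal totals (log2 fold change 0.43, limma adjusted p = 0.251). As deposited, 11.8% of all miRNAs separated in that direction. The share at equal totals is not given here, so the separation of let-7d-5p in that scaling has no background beside it. At equal totals let-7f and let-7i separated too, both lower in stage IIIb, as did 18.3% of all miRNAs. In the equal scaling, let-7i alone had an unadjusted p of 0.05 or less, with a log2 fold change of -0.70 (limma adjusted p = 0.169), where 21.5% of all did. miR-125a itself overlapped between the stages, as given above. let-7a, with 2 of its genes beside miR-100 genes, had a log2 fold change of 0.55, and let-7c-5p, whose genes stand beside miR-99, of 0.40, neither of which passed the test. Other copies of let-7a lie outside these clusters.

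The pattern over the 6 samples was compared by the root mean square difference of log2(normalized count + 1) centred on its mean. Nearest to miR-100-5p were miR-457a (0.12), miR-34a (0.14, at a mean of only 50.6 normalized counts) and miR-25-3p (0.14). Its seed partner miR-99 ranked 37 of the other miRNAs (0.26). Of the guides with the other seed, miR-125b-5p was nearer, at rank 17 (0.22), and miR-125c-5p farther, at rank 151 (0.51). Nearest to miR-125a were mir-27c-p5 (0.13), let-7b (0.17) and miR-30d (0.19), with miR-125c-5p at rank 15 (0.29) and miR-125b-5p at rank 30 (0.34). Between these seed partners lay miR-99, with the other seed, at rank 25 (0.32). miR-125a and miR-100-5p differed by 0.50, at ranks 148 and 117 of each other's lists. All these values share the 6 libraries and their scaling.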

How the data were processed

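Small RNA of 6 pools, 3 per stage, was sequenced by the authors, who removed adaptor dimers, low complexity reads and common RNA families with ACGT101-miR and aligned the rest to miRBase precursors with BLAST. The deposited signal is the read count of each miRNA divided by a library size parameter. Pools were taken as replicates, so the p-values come from comparing pools and not single fish. The members and lists were chosen with earlier results of these data known. Members, let-7 guides, the nearest 3 patterns of the top guides and the marker lists were named by rule.

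The logged values, log2(normalized count + 1), were fitted with limma 3.58.1 (R 4.3.3), with a mean-variance trend, no filter and Benjamini-Hochberg adjustment over 289 miRNAs. The study's methods name a separate test for each miRNA, and limma, which shares the spread across miRNAs, was used in its place because there were 3 samples per stage. Single values had an exact two-sided permutation test. The fit was tested on simulated data, with planted changes larger than that of any member and noise drawn separately for each miRNA. Its power for smaller changes was not tested. Folds came from RNAfold 2.7.2. Reads per value were recovered from the largest step of which most values under 400 were multiples (82.8% to 85.9% whole, 96.2% to 98.7% whole after multiplication by 1, 2 or 3), and used for checks only. The alternatives were pseudocounts, a filter, 3 scalings, limma without the trend or robust, the replicate block, each sample left out and, added after the values were seen, voom weights.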

Additional observations from a re-analysis of the deposited data

How the results depend on the processing

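No member had an adjusted p under 0.05 in limma in the 16 alternatives, where the lowest was 0.165, for mir-125a-1-p3 with the replicate block. At an unadjusted p of 0.05 or less, higher in stage IIIb, the count was 1 with size factors from median ratios, with equal totals without the 10 highest miRNAs, without the trend and with the replicate block, each time mir-125a-1-p3, where 12.5%, 14.5%, 6.92% and 14.5% of all miRNAs passed. It was 0 to 2 with each sample left out, and the 2 were mir-125a-1-p3 and miR-125a, without stage IIIb replicate 1, where 15.6% of all passed. With equal totals the log2 difference of the summed guides was -0.15, against 0.16 as deposited, and that of the miR-99 and miR-100 guides -0.32, against -0.0026. That scaling moved the median of all miRNAs, so directions follow it. Of 207 alternatives of single members, 29 changed sign and 0 changed the call. The median of the 13 lay between -0.028 and 0.42 with each sample left out, and that of all 289 between -0.0090 and 0.27. The deviations of same-numbered samples correlated at 0.10, 0.28 and -0.034 in replicates 1, 2 and 3. Stage IIIb replicates 1 and 2 correlated best with the stage IIIa sample of the same number. Stage IIIb replicate 3 correlated best with stage IIIa replicate 1 (0.19). The sources used here do not say whether same-numbered pools shared fish. The main fit took no pairs, and the block was an alternative. With the block as pairs, the summed guides differed by 0.16 (exact sign-flip test, p = 0.75, smallest possible 0.25). Over all 289 miRNAs the block called 9, against 13, equal totals without the 10 highest called 20, and leaving out each sample called 7 to 12. The lowest value rested on 17 reads, in stage IIIa replicate 1.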
